A study of Mus musculus with 16 samples.

Results

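The subject is the ON bipolar mGluR6 cascade, the receptor, channel, adhesion and G protein genes with which ON bipolar cells read glutamate released by photoreceptors. Its 10 members were the rows of the deposited retina table named Grm6, Trpm1, Nyx, Gpr179, Lrit3, Gng13, Gnao1, Rgs7, Rgs11 and Gnb5, out of 54532 genes, and all 10 were present and passed the filter on low values. RNA sequencing measured whole retinas of 12-day-old mice of 2 strains, C57 and BALBc, taken from a comparison of strains that resist or succumb to oxygen-induced retinopathy; the labels do not say which strain is which and give no substrain. Hyperoxia meant 75% oxygen between days 7 and 12, when retinal capillaries are lost, and normoxia meant room air. There were 4 libraries in each of the 4 groups, C57 normoxia, C57 hyperoxia, BALBc normoxia and BALBc hyperoxia, and the labels name no transgene or drug in any of them. Nothing in the labels ties a library to an animal of its own, so a p-value weighs only the spread among libraries, which may be technical.

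ON bipolar cells depolarise when light falls, the reverse of the photoreceptors that drive them. In darkness, photoreceptor glutamate binds the metabotropic receptor mGluR6 (Grm6) on the dendritic tips, which activates the G protein Go (alpha subunit Gnao1, gamma subunit Gng13) and keeps the cation channel TRPM1 closed. In light, glutamate falls, Go is switched off by a GTPase-activating complex of Rgs7 or Rgs11 with the beta subunit Gnb5, held at the membrane by the orphan receptor Gpr179, and the channel opens. The leucine-rich repeat proteins nyctalopin (Nyx) and Lrit3 are needed to place TRPM1 at the synapse. Loss of Grm6, Trpm1, Nyx, Gpr179 or Lrit3 causes congenital stationary night blindness in people. In mice Lrit3 is made by photoreceptors and acts across the synapse, and Gnb5 also partners Rgs9 in photoreceptors, while Gnao1 and Rgs7 are used by many other neurons. In a whole retina, fewer cells of a type and less RNA per cell therefore cannot be told apart, and for several members the cell of origin cannot be told either.

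RefSeq promoter windows of build GRCm38.p6 were found for 9 of the 10 members, in 11 windows. The 250 bases before the annotated start are given for the 4 genes of the set whose levels moved together or opposite across libraries and had a window (Grm6, Gpr179, Lrit3 and Gnb5), for the channel Trpm1 and for Gng13, the member called between oxygen conditions. Each is written from 5′ to 3′ on the gene's own strand, and capitals mark TAATCC or its complement GGATTA, the core letters bound by homeobox factors of the Crx and Otx kind.
Grm6, chr11:50850435-50850684, plus strand: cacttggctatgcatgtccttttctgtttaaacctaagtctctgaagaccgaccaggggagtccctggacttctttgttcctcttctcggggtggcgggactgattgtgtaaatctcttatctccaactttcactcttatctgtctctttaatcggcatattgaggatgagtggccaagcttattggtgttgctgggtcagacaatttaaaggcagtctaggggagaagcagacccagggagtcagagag
Gpr179, chr11:97352357-97352606, minus strand: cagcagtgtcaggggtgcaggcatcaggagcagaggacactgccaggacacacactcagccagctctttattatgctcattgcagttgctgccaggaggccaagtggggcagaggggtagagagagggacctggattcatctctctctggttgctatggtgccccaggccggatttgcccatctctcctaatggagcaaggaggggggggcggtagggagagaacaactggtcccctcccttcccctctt
Trpm1, chr7:64153585-64153834, plus strand: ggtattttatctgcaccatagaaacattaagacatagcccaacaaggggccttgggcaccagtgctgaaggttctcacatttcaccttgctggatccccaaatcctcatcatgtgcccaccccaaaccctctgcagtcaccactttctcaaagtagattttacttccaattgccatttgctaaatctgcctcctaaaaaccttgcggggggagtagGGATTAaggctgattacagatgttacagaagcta
Lrit3, chr3:129804137-129804386, minus strand: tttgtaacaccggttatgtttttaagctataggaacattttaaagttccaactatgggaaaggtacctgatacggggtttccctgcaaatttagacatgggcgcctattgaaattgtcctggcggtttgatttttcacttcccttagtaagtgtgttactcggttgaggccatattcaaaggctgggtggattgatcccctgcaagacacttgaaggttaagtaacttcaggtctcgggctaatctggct
Gnb5, chr9:75306038-75306287, plus strand: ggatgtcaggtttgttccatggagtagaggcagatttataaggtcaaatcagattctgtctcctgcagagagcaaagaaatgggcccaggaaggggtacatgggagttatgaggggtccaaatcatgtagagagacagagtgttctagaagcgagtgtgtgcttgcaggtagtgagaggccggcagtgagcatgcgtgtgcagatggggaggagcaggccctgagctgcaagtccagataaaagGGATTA
Gng13, chr17:25716922-25717171, plus strand: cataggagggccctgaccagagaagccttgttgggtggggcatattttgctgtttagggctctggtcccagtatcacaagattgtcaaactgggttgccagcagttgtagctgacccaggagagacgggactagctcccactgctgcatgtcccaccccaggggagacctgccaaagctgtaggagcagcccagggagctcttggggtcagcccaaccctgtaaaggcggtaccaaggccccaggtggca
Searched on both strands, TAATCC was found in 2 of the 11 windows, in the first Trpm1 window beginning at base -34 from the start and in the Gnb5 window beginning at base -6. Of 32851 RefSeq windows of the same length, 6.25% held it. The E-box letters CANNTG were in 10 of the 11 windows and in 66.2% of all windows. These are matches of letters and no more.

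Whole reads recovered from the FPKM values (fragment counts scaled by gene length and by a library size) numbered 16.7 M (mega) in the smallest library and 29.7 M in the largest. The least covered value of a member was Rgs11 in BALBc hyperoxia replicate 2, at 152 reads, where an exact Poisson interval (95%, counting error only) runs from 1.64 to 2.27 FPKM. Retinal transcripts were present, and no gene of the rod bipolar list was absent. Prkca, the protein kinase of rod bipolar cells, lay between 24.9 and 35.4 FPKM in the 16 libraries. Transcripts of neighbouring tissue were present too, in uneven amounts. The summed level of 7 lens markers ran from 0.474 to 3976 FPKM in C57 hyperoxia and from 13.4 to 1068 FPKM in BALBc hyperoxia. That of 6 pigment epithelium markers ran from 64.6 to 365 FPKM in BALBc hyperoxia. Libraries of the same group differed in cell type markers. The mean log2(FPKM + 0.5) of 11 rod markers was 8.34 and 8.20 in C57 normoxia replicates 1 and 2 against 9.58 and 9.28 in replicates 3 and 4, and 8.55 in BALBc hyperoxia replicate 1 against 9.60, 9.59 and 9.15 in replicates 2 to 4. Transcripts of Xist and Ddx3y placed 4 of 4 C57 hyperoxia libraries as female and 3 C57 normoxia libraries as male, with 1 holding both, so that sex and oxygen cannot be told apart in C57. BALBc normoxia had 2 male and 2 female libraries, and BALBc hyperoxia 1 male and 3 female. Replicate 3 of each was placed as female by a cut on Ddx3y of 2 FPKM. It held some Ddx3y, at 0.755 FPKM in BALBc normoxia and 1.61 FPKM in BALBc hyperoxia.

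Gnb5 stood far above the rest, at 177 ± 38.3 FPKM (mean and SD over 16 libraries), and was above Gnao1 in 16 of 16 libraries. Gnao1 (30.4 ± 3.58 FPKM), Lrit3 (29.3 ± 9.45), Grm6 (27.3 ± 9.92) and Gng13 (24.2 ± 5.35) formed a middle tier whose order was not fixed. Within it Gnao1 was above Lrit3 in 9 of 16 libraries, Lrit3 above Grm6 in 11 and Grm6 above Gng13 in 11. Trpm1 followed at 19.5 ± 4.05 FPKM, under Gng13 in 14 libraries, and Gpr179 at 13.6 ± 3.68 FPKM, under Trpm1 in 16. At the foot were Rgs11 (7.79 ± 2.70 FPKM), Rgs7 (5.67 ± 1.35) and Nyx (3.09 ± 0.736); Rgs11 was below Gpr179 in 16 libraries and above Rgs7 in 14, and Rgs7 was above Nyx in 16. FPKM divides reads by the joined length of all annotated exons of a gene, such as 773 bases for Gng13 and 14746 for Trpm1. That length can differ from that of the transcripts in use, so the order of levels between genes is approximate. On the log2 scale Grm6 varied most over the 16 libraries (SD 0.64), then Rgs11 (0.60), and Gnao1 least (0.18). The highest library had 6.17 times the lowest for Grm6, 6.76 times for Rgs11, where the lowest is the library of 152 reads, and 1.76 times for Gnao1.

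**Figure D1:**
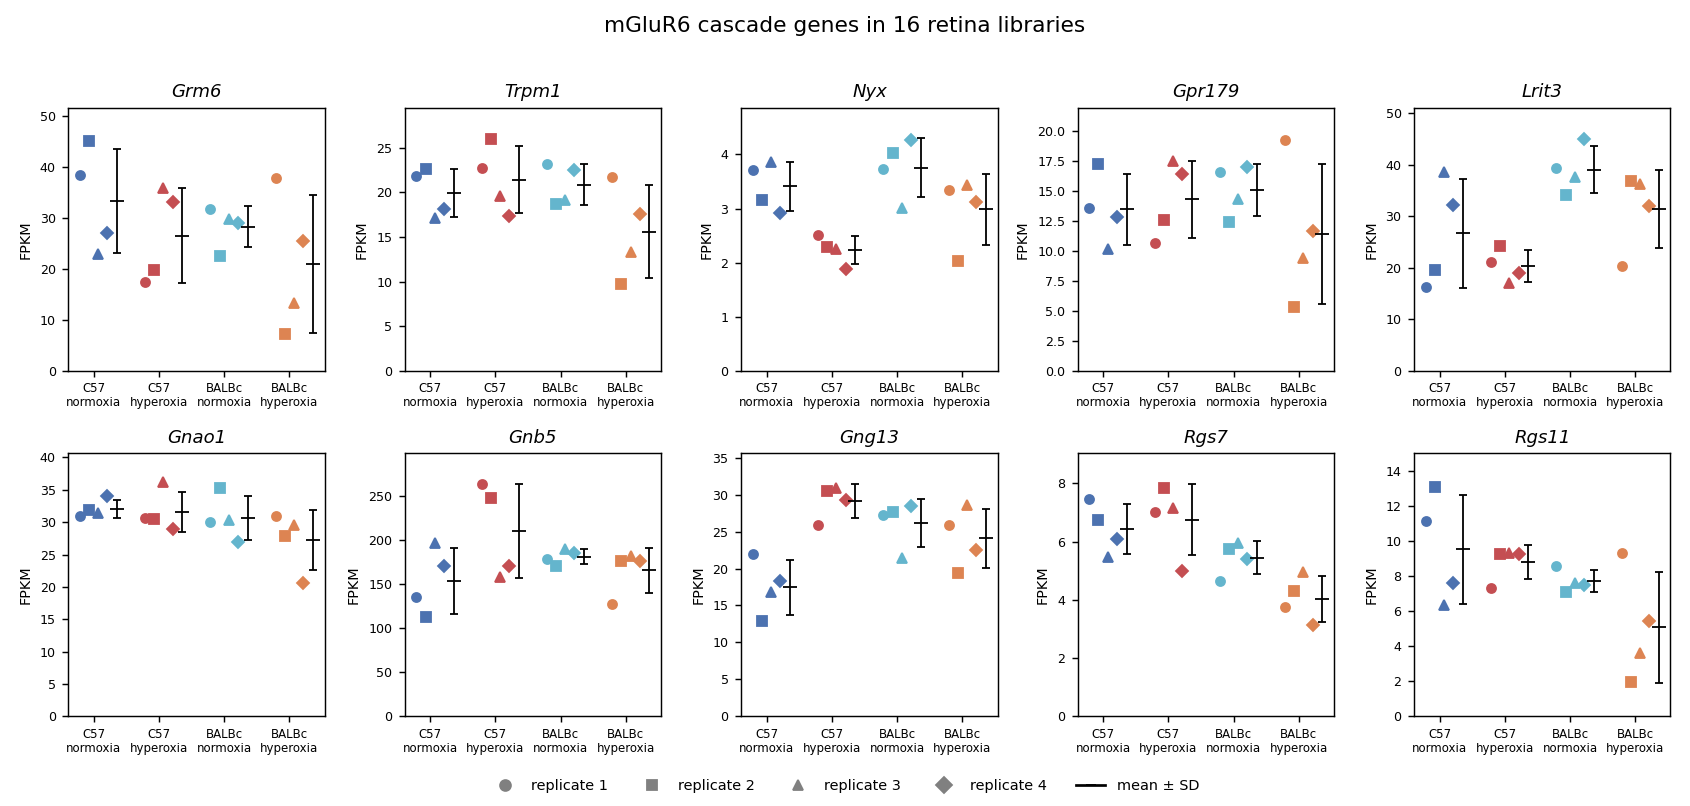
FPKM (y axis, from 0) of each of the 10 cascade genes in the 16 libraries, by group; symbols are replicates and the black bar is the mean ± SD of 4 libraries. Gng13 in C57 hyperoxia (25.8 to 30.9 FPKM) lies above all C57 normoxia libraries, Nyx in C57 hyperoxia lies below them, and Grm6, Gpr179 and Rgs11 spread most in BALBc hyperoxia.

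The receptor Grm6 (ENSMUSG00000000617, GRCm38 chromosome 11, 50850685 to 50866208, plus strand) read 38.4, 45.0, 22.9 and 27.0 FPKM in C57 normoxia replicates 1 to 4 and 17.4, 19.8, 35.8 and 33.1 FPKM in C57 hyperoxia. In BALBc it read 31.7, 22.5, 29.8 and 28.9 FPKM under normoxia and 37.8, 7.29, 13.3 and 25.5 FPKM under hyperoxia. The groups overlapped in every pairing, and BALBc hyperoxia held both a very low library and one of the higher ones. Of its exonic bases, 599 overlap Gm12660 on the other strand.

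The channel Trpm1 (ENSMUSG00000030523, chromosome 7, 64153835 to 64269775, plus strand) was steadier. Its values were 21.8, 22.6, 17.1 and 18.1 FPKM in C57 normoxia, 22.8, 26.0, 19.6 and 17.4 in C57 hyperoxia and 23.2, 18.7, 19.2 and 22.5 in BALBc normoxia. In BALBc hyperoxia they were 21.8, 9.70, 13.3 and 17.6 FPKM, and replicates 2 and 3 were the 2 lowest of all 16 libraries. Nyx (ENSMUSG00000051228, chromosome X, 13466110 to 13489313, plus strand), the scaffold of the channel, read 3.71, 3.16, 3.85 and 2.91 FPKM in C57 normoxia and 2.50, 2.30, 2.25 and 1.87 FPKM in C57 hyperoxia. All 4 hyperoxia libraries of C57 were below all 4 normoxia libraries. In BALBc it read 3.73, 4.02, 3.01 and 4.26 FPKM in normoxia and 3.34, 2.03, 3.44 and 3.13 FPKM in hyperoxia, and these groups overlapped.

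The orphan receptor Gpr179 (ENSMUSG00000070337, chromosome 11, 97332109 to 97352077, minus strand) read 13.6, 17.3, 10.2 and 12.8 FPKM in C57 normoxia and 10.7, 12.6, 17.5 and 16.4 FPKM in C57 hyperoxia. In BALBc it read 16.6, 12.4, 14.3 and 17.0 FPKM in normoxia and 19.3, 5.35, 9.39 and 11.7 FPKM in hyperoxia. As for Grm6, BALBc hyperoxia replicate 1 was high and replicate 2 lowest. Lrit3 (ENSMUSG00000093865, chromosome 3, 129787881 to 129804030, minus strand), the photoreceptor-side partner, ran the other way. It read 16.2, 19.6, 38.6 and 32.2 FPKM in C57 normoxia and 21.1, 24.2, 17.1 and 18.9 FPKM in C57 hyperoxia. BALBc retinas gave 39.3, 34.0, 37.7 and 44.9 FPKM under normoxia and 20.4, 36.7, 36.3 and 32.0 FPKM under hyperoxia. BALBc hyperoxia replicate 1 was here the lowest of its group.

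Among the G protein subunits, Gnao1 (ENSMUSG00000031748, chromosome 8, 93809966 to 93969388, plus strand) lay between 26.9 and 36.2 FPKM in 15 of 16 libraries, and BALBc hyperoxia replicate 4 was lower at 20.5 FPKM. Gng13 (ENSMUSG00000025739, chromosome 17, 25717171 to 25719406, plus strand) read 21.9, 12.9, 16.8 and 18.3 FPKM in C57 normoxia and 25.8, 30.5, 30.9 and 29.2 FPKM in C57 hyperoxia. In BALBc the values were 27.2, 27.6, 21.4 and 28.5 FPKM under normoxia and 25.9, 19.4, 28.6 and 22.5 FPKM under hyperoxia. C57 normoxia was the low group. Of the 773 exonic bases of Gng13, 399 overlap Chtf18 on the other strand, and without the strand setting of the counting their reads cannot be assigned with certainty; Chtf18 group means were 1.34 to 1.89 FPKM.

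Gnb5 (ENSMUSG00000032192, chromosome 9, 75306288 to 75345876, plus strand), the beta subunit of the RGS complex, read 135, 113, 196 and 170 FPKM in C57 normoxia and 263, 248, 158 and 170 FPKM in C57 hyperoxia. BALBc retinas gave 179, 170, 190 and 185 FPKM under normoxia and 127, 176, 182 and 176 FPKM under hyperoxia. The highest 2 values were C57 hyperoxia replicates 1 and 2. Rgs7 (ENSMUSG00000026527, chromosome 1, 175059087 to 175492500, minus strand) read 7.47, 6.74, 5.46 and 6.09 FPKM in C57 normoxia and 7.01, 7.83, 7.16 and 5.0 FPKM in C57 hyperoxia. For BALBc the values were 4.66, 5.75, 5.96 and 5.41 FPKM under normoxia and 3.75, 4.31, 4.95 and 3.13 FPKM under hyperoxia. The 4 BALBc hyperoxia libraries were all below the 4 of C57 hyperoxia, by a gap of 4.95 against 5.0 FPKM at the nearest pair.

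Rgs11 (ENSMUSG00000024186, chromosome 17, 26202951 to 26211324, plus strand), the other RGS protein of the complex, read 11.2, 13.1, 6.37 and 7.60 FPKM in C57 normoxia and 7.36, 9.29, 9.31 and 9.26 FPKM in C57 hyperoxia. For BALBc they were 8.60, 7.11, 7.63 and 7.53 FPKM under normoxia and 9.34, 1.94, 3.61 and 5.47 FPKM under hyperoxia. BALBc hyperoxia replicates 2, 3 and 4 were the lowest of all libraries and replicate 1 was higher than all 4 of BALBc normoxia. Of its exonic bases, 138 overlap Arhgdig on the other strand.

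Within groups, the members fell into sets that moved together from library to library, as differences of log2(FPKM + 0.5) from the group mean. Grm6 was on the same side of its group mean as Gpr179 in 15 of 16 libraries, as Rgs11 in 13 and as Trpm1 in 11. Rgs11 and Gpr179 shared a side in 14. Lrit3 and Gnb5 shared a side in 14 of 16 libraries, and each was opposite to Grm6 in 12. Nyx shared a side with Grm6 in 8 of 16, and Gnao1 in 5. These counts describe 16 libraries in which all genes share depth and tissue, and no test was made of them.

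The size of the shared movement was largest in BALBc hyperoxia. Replicate 1 was above its group mean by 1.08 for Grm6, 1.0 for Rgs11 and 0.86 for Gpr179 on the log2 scale. Replicate 2 was at -1.21, -1.01 and -0.89 for the same genes. The ratio of the level of Grm6 to that of Rgs11 was between 3.69 and 4.66 in the same 4 libraries, between 2.13 and 3.84 in C57 hyperoxia, and between 2.13 and 4.66 over all 16. Over all 16 libraries the ratio of Grm6 to Gpr179 ran from 1.36 to 2.83, while that of Lrit3 to Grm6 ran from 0.422 to 5.04.

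Markers of other cells moved with these sets. The mean of 9 bipolar markers was on the side of Grm6 in 15 of 16 libraries, on that of Gpr179 in 14 and on that of Rgs11 in 14. It was 5.04, 3.69, 4.18 and 4.64 in BALBc hyperoxia replicates 1 to 4, and between 4.52 and 4.69 in BALBc normoxia. Its summed level in BALBc hyperoxia ran from 184 to 422 FPKM. The mean of 6 rod bipolar markers was on the side of Grm6 in 13 libraries, of Gpr179 in 14 and of Rgs11 in 12. It moved less: in BALBc hyperoxia replicates 1 to 4 it differed from its group mean by 0.24, -0.33, 0.08 and 0.01. Grm6 differed there by 1.08, -1.21, -0.39 and 0.52. In C57 hyperoxia the mean of the 9 bipolar markers stayed between 4.80 and 4.93, while Grm6 ran from 17.4 to 35.8 FPKM. There the lens marker mean differed from its group mean by -3.76, -3.21, 5.31 and 1.67 in replicates 1 to 4. Grm6 was also below its group mean in replicates 1 and 2 and above it in 3 and 4. Over all 16 libraries lens markers were on the side of Grm6 in 7, and the part of lens tissue was not tested. Rod markers were on the opposite side to Grm6 in 11 of 16 libraries and on the side of Lrit3 and of Gnb5 in 11 each. Lists of other cells were opposite to Grm6 in more libraries: ganglion cell markers in 15 of 16, pigment epithelium markers in 14 and horizontal cell markers in 12. Pigment epithelium markers shared the side of Lrit3 and of Gnb5 in 12 each, ganglion cell markers in 11 each. Of the 5 OFF bipolar markers, which belong to cells without this cascade, the mean was on the side of Trpm1 in 15 libraries and of Grm6 in 10. No marker of the rod or bipolar lists was at 0 in any library, and the part of cell makeup in the movement was not tested.

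**Figure D2:**
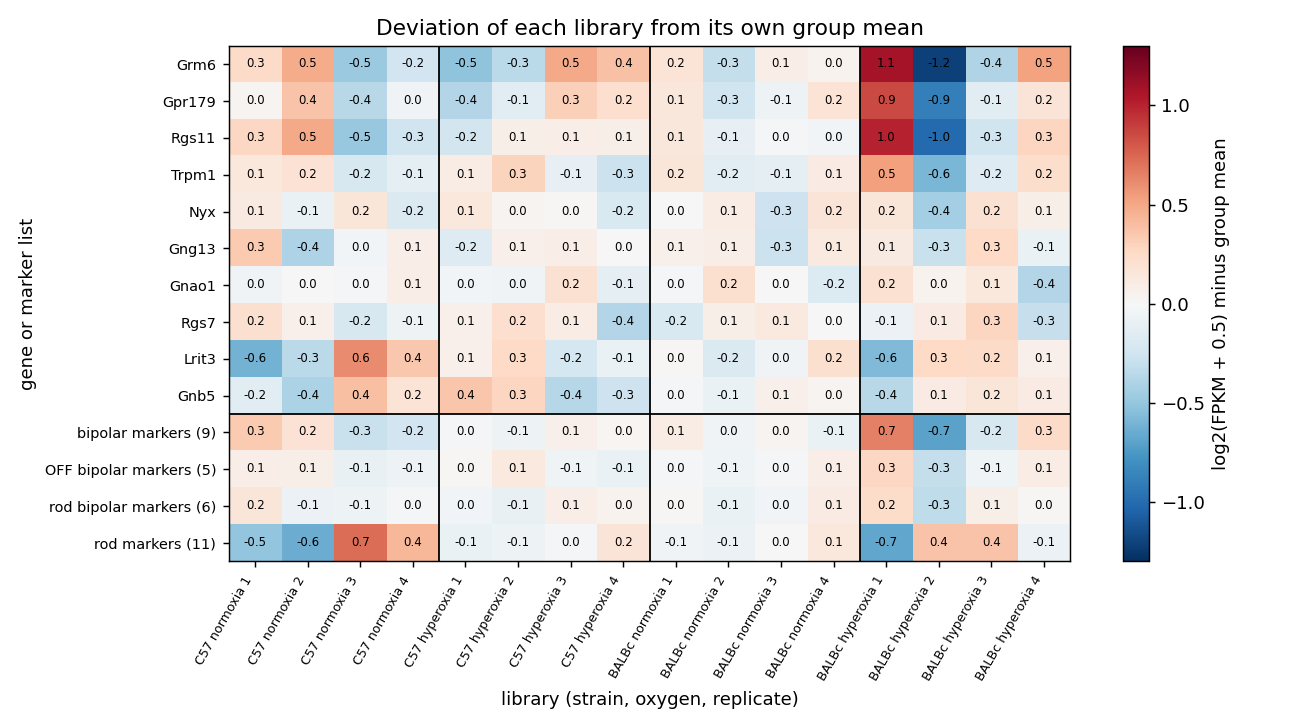
Difference of each library from its own group mean, as log2(FPKM + 0.5), for the 10 cascade genes and the means of 4 marker lists (rows; number of genes in brackets) in 16 libraries (columns); red is above and blue below the group mean. Grm6, Gpr179, Rgs11 and the bipolar markers share their colour in most libraries, and Lrit3, Gnb5 and the rod markers often have the other one.

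**Figure D3:**
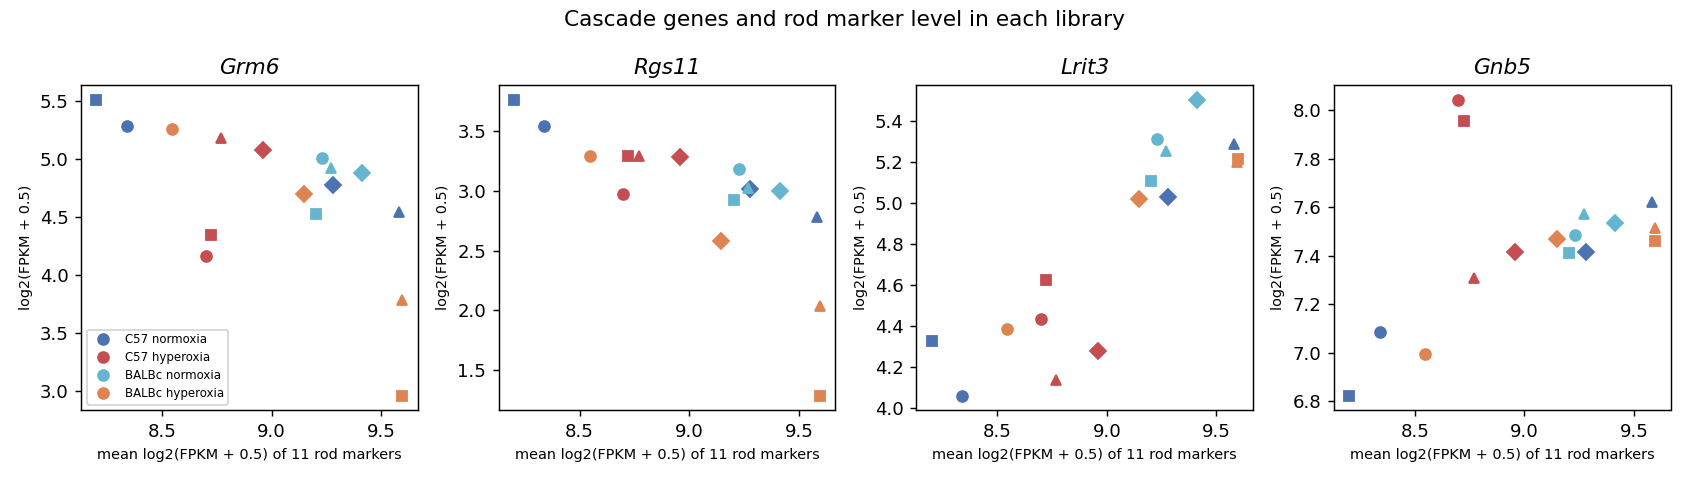
Level of Grm6, Rgs11, Lrit3 and Gnb5 as log2(FPKM + 0.5) (y axis) against the mean of 11 rod markers on the same scale (x axis), 1 point per library, coloured by group, with symbols for replicates as in the plot of levels by library. Within BALBc hyperoxia, the library lowest in rod markers (8.55) was the highest in Grm6 and Rgs11 and the lowest in Lrit3 and Gnb5. Within C57 hyperoxia the rod marker mean lay between 8.70 and 8.96. There Grm6 ran from 17.4 to 35.8 FPKM and Gnb5 from 158 to 263 FPKM.

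Between hyperoxia and normoxia in C57, Gng13 rose and no other member was called. It went from 17.5 ± 3.71 to 29.1 ± 2.30 FPKM (SD, n = 4 each), a log2 change of 0.74 (SE 0.15, limma adjusted p = 0.0494), and the groups did not overlap. Of all 14953 genes tested, 50 (0.334%) were called in this comparison, 0.107% as higher, and 1141 (7.63%) had groups that did not overlap, against 2 of the 10 members. Nyx was the other member without overlap, at 3.41 ± 0.444 FPKM in normoxia and 2.23 ± 0.262 in hyperoxia (log2 change -0.51, SE 0.15, limma adjusted p = 0.142). The ratio of Gng13 to Trpm1 was 0.572 to 1.01 in normoxia and 1.13 to 1.68 in hyperoxia. The call on Gng13 is at the threshold: it passed in 3 of 20 alternative settings, where its log2 change was 0.61 to 0.85 and its limma adjusted p 0.0202 to 0.481. With sex as a covariate the log2 change of Gng13 was 0.78 (limma adjusted p = 0.481) and that of Nyx, which lies on the X chromosome, -0.37 (limma adjusted p = 0.753).

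For the rest of the cascade in C57, Gnb5 was at 154 ± 37.1 and 210 ± 53.4 FPKM (log2 difference 0.44, limma adjusted p = 0.332) and Grm6 at 33.3 ± 10.2 and 26.5 ± 9.27 FPKM (-0.34, with a 95% interval of -1.17 to 0.49). Lrit3 differed by -0.31 on the log2 scale. The differences of Trpm1 (0.10), Gpr179 (0.08), Rgs7 (0.05), Gnao1 (-0.03) and Rgs11 (-0.07) were small, but their intervals differ in width. That of Gnao1 was -0.28 to 0.23, and that of Rgs11 was -0.73 to 0.60. The median log2 difference of the 10 members was 0.01, as for all genes tested, with 5 above 0. Without C57 normoxia replicates 1 and 2, the libraries highest in Grm6 and lowest in rod markers, the log2 difference of Gng13 was 0.71 (limma adjusted p = 0.0955).

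In BALBc, limma called 0 of the 10 members between hyperoxia and normoxia, and 24 of all genes tested (0.161%). All 10 members had a lower fitted value in hyperoxia, with a median log2 difference of -0.37 against -0.00 over all genes tested, of which 48.96% were above 0. At an unadjusted p under 0.05 there were 3 of the 10 members, all lower, against 5.78% of all genes in that direction. Rgs11 was at 7.72 ± 0.627 FPKM in normoxia and 5.09 ± 3.18 in hyperoxia (log2 difference -0.74, SE 0.31, limma adjusted p = 0.309), and Rgs7 at 5.45 ± 0.568 and 4.03 ± 0.776 FPKM (-0.40, SE 0.15, limma adjusted p = 0.222). Trpm1 was at 20.9 ± 2.28 and 15.6 ± 5.24 FPKM (-0.46, SE 0.20, limma adjusted p = 0.304). Grm6 was at 28.3 ± 4.0 and 21 ± 13.5 FPKM (-0.66, with a 95% interval of -1.49 to 0.17). Gpr179 differed by -0.51, Lrit3 by -0.34, Nyx by -0.30, Gnao1 by -0.18, Gnb5 by -0.14 and Gng13 by -0.13 on the log2 scale. In this comparison the 9 bipolar markers were also all on the lower side, with a median of -0.22, as were the 5 OFF bipolar markers (-0.45), the 6 rod bipolar markers (-0.27) and the 8 amacrine markers (-0.21); the 11 rod markers had a median of 0.00. The 7 endothelial markers were all on the lower side, with a median of -0.84 and 2 called (Cldn5 and Eng), of 6 Müller glia markers 5 were on the lower side (-0.35), and of 8 ganglion cell markers 7 were (-0.15). On the higher side were 5 of 5 pigment epithelium markers tested (0.56), 5 of 6 microglia markers (0.31) and 7 of 7 lens markers (0.69), with none called. BALBc hyperoxia replicates 2 and 3, the highest of their group in rod markers, were left out in a setting added after the data were seen. The log2 differences were then 0.15 for Grm6, 0.00 for Gpr179, -0.08 for Trpm1 and -0.10 for Rgs11, but -0.59 for both Lrit3 and Rgs7. These libraries were also the lowest of their group in Grm6, Gpr179, Trpm1 and Rgs11. Leaving them out therefore raises the mean of the rest for these genes by construction, and 2 libraries remain in that group. With rod markers as a covariate Rgs11 was called, at a log2 difference of -0.79 (limma adjusted p = 0.0278), and it was not called in the other 19 settings.

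The difference of the responses of the strains was tested in the same fit, and no gene was called (0 of 14953, 0%; 9.56% at an unadjusted p under 0.05 by limma). Gng13 had the smallest p of the members, with a response in BALBc below that in C57 by -0.86 (SE 0.21, 95% interval -1.31 to -0.41, unadjusted p = 0.000924, limma adjusted p = 0.250). Rgs7 (-0.46) and Gnb5 (-0.59) also had an unadjusted p under 0.05, and their limma adjusted p were 0.508 and 0.517; these 3 members were all lower, as were 4.81% of all genes at that level. The responses of Gng13 were therefore not shown to differ between strains; in BALBc it was 26.2 ± 3.23 FPKM in normoxia and 24.1 ± 4.02 in hyperoxia.

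Between the strains in normoxia, Gng13 was higher in BALBc, the only member called, at a log2 difference of 0.58 (SE 0.15, limma adjusted p = 0.0220), where 1358 of all genes (9.08%) were called, 4.7% as higher. This comparison and that of oxygen in C57 share the C57 normoxia libraries, in which Gng13 was low, so they are not separate evidence. The groups overlapped by BALBc normoxia replicate 3 (21.4 FPKM) against C57 normoxia replicate 1 (21.9 FPKM). The call passed in 15 of 20 alternative settings and was lost with TPM scaling and without any of C57 normoxia replicate 2 or BALBc normoxia replicates 1, 2 or 4, with limma adjusted p of 0.0566 to 0.0914. Lrit3 was at 39.0 ± 4.53 FPKM in BALBc and 26.6 ± 10.5 in C57 (log2 difference 0.62, SE 0.24, limma adjusted p = 0.128). Rod markers were on the higher side in BALBc for 11 of 11 genes, with a median of 0.39. The log2 difference of Lrit3 was 0.29 (limma adjusted p = 0.168) with rod markers as a covariate and 0.14 (limma adjusted p = 0.797) without C57 normoxia replicates 1 and 2, the libraries lowest in rod markers. Within C57 normoxia these 2 libraries were also the lowest in Lrit3 itself, at 16.2 and 19.6 FPKM. Leaving them out therefore shrinks the difference by construction. Over 20 alternative settings the log2 difference of Lrit3 ran from 0.14 to 0.82. Lrit3 was called in 1 of them, without C57 normoxia replicate 3. The other members had log2 differences between -0.24 (Rgs11) and 0.27 (Gnb5).

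Between the strains in hyperoxia, Rgs7 and Rgs11 were the only members called out of 10, both as lower in BALBc. Of all genes tested 3380 (22.6%) were called, 10.8% as lower, so a call in this comparison was common. Rgs7 was at 6.75 ± 1.22 FPKM in C57 and 4.03 ± 0.776 in BALBc, a log2 difference of -0.68 (SE 0.15, limma adjusted p = 0.00466), with no overlap, where 21.4% of all genes had none and 10.1% were lower without it. It passed in all 20 alternative settings, with log2 differences of -0.89 to -0.57 and limma adjusted p of 0.00114 to 0.0305. The 3 BALBc libraries placed as female read 3.75, 4.31 and 4.95 FPKM. Their place below the 4 female C57 libraries follows from the lack of overlap and is no separate check on sex. Rgs11 was at 8.80 ± 0.964 FPKM in C57 and 5.09 ± 3.18 in BALBc, a log2 difference of -0.91 (SE 0.31, limma adjusted p = 0.0476), with overlap through BALBc replicate 1. It passed in 5 of 20 alternative settings. Its log2 difference was -0.57 (limma adjusted p = 0.142) without BALBc hyperoxia replicate 2, -0.27 (limma adjusted p = 0.499) without replicates 2 and 3, and -0.12 (limma adjusted p = 0.519) with bipolar markers as a covariate.

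Other members in hyperoxia did not pass. Trpm1 had a log2 difference of -0.49 (limma adjusted p = 0.0808), Nyx 0.33 (0.114 in the same test), Lrit3 0.59 (0.0890), Grm6 -0.51 (0.367) and Gpr179 -0.42 (0.296). Gng13 was lower by -0.28, Gnao1 by -0.22 and Gnb5 by -0.32, none of them called. The median of the 10 members was -0.37, with 2 above 0, against 0.01 over all genes tested. Markers of other cells differed between the same libraries, where 22.6% of all genes tested were called, 10.8% as lower. Of 9 bipolar markers 2 were called lower (Lhx4 -1.17, Trnp1 -0.67), of 5 OFF bipolar markers 2 were (the kainate receptor Grik1 -0.61 and its partner Neto1 -0.51), and of 8 amacrine markers 4 were, on the log2 scale. Calls were not limited to these cells: 5 of 7 endothelial markers (list median -0.90) and 3 of 6 Müller glia markers (-0.44) were lower, 2 of 6 microglia markers (0.39) and 2 of 5 pigment epithelium markers (0.69) were higher, and of 7 cone markers 3 were higher and 1 lower. The amacrine mean was 2.25 in BALBc hyperoxia replicate 4, where Rgs7 and Gnao1 had their lowest values, and 2.90 to 3.32 in the other 15 libraries. Rgs7 and Gnao1 are not restricted to ON bipolar cells, and the part of amacrine cells in their values was not tested.

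**Figure D4:**
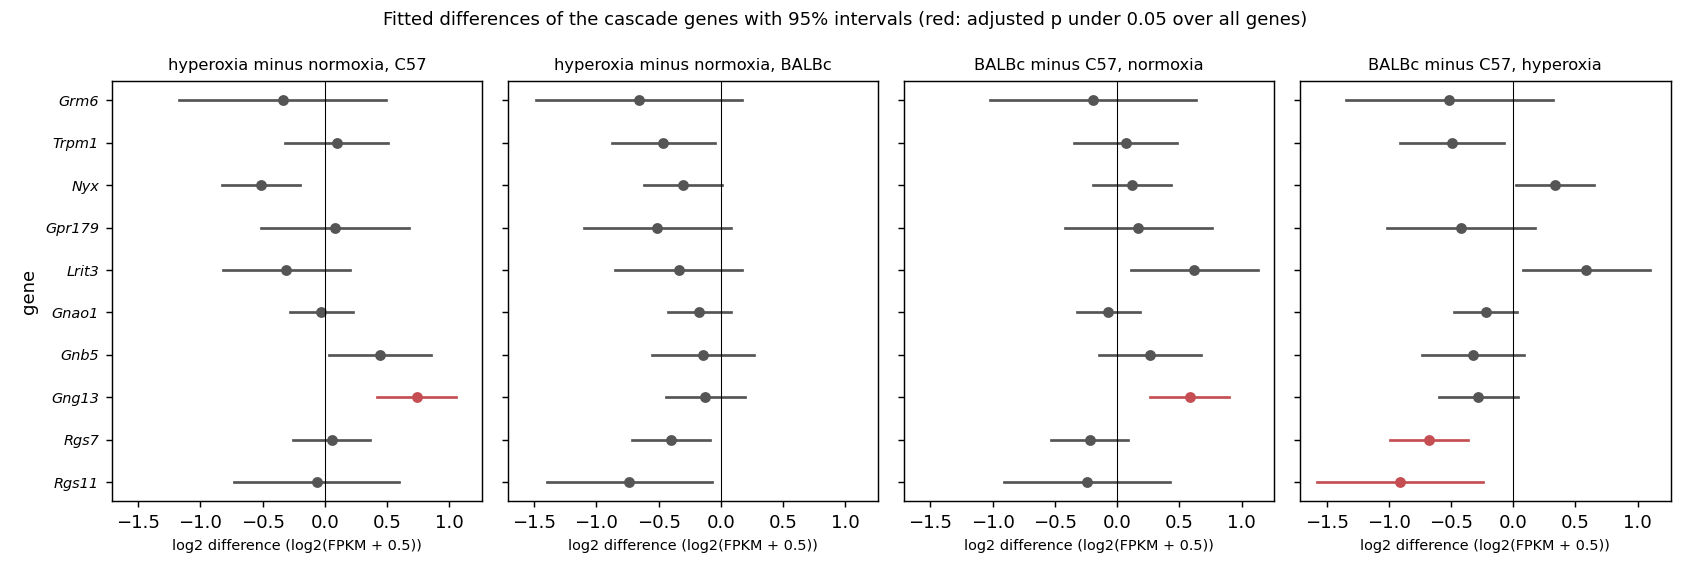
Fitted log2 difference of log2(FPKM + 0.5) with its 95% interval (x axis) for the 10 cascade genes (y axis) in 4 comparisons; red marks a limma adjusted p under 0.05 over all genes. Gng13 is red in C57 oxygen and in the strains in normoxia, Rgs7 and Rgs11 in the strains in hyperoxia, and in BALBc oxygen all points lie left of 0 with none red.

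A list of 15 further genes of the ON bipolar dendrite and the photoreceptor terminal was tested beside the members, all of which passed the filter. By limma, 0 were called between oxygen conditions in C57 (median log2 difference -0.09) or BALBc (-0.04), and at an unadjusted p under 0.05 there were 2 of 15 in C57 and 0 in BALBc, against 13.3% and 14.2% of all genes. The most abundant were Gnb3, the beta subunit of Go in ON bipolar cells, at 188 FPKM, and Lrit1, a photoreceptor synaptic protein, at 130 FPKM. These are levels of the whole retina, and the cell of origin of the Gnb3 reads was not tested. Between strains in normoxia, Rgs9bp (log2 difference 0.84), the anchor of Rgs9, and Lrit2 (0.76) were higher in BALBc and Ric8a (-0.33), a chaperone of G protein alpha subunits, lower. Of all genes tested, 9.08% were called between strains in normoxia and 22.6% in hyperoxia. In hyperoxia 4 of the 15 were higher and 1 lower. Gnb3 was at 153 ± 13.2 FPKM in C57 and 223 ± 46.6 in BALBc (log2 difference 0.52, limma adjusted p = 0.0216), while Gnb5 differed by -0.32 without being called. Lrit2 (1.22), the synaptic matrix protein pikachurin Egflam (1.20) and the calcium-binding protein Cabp4 of photoreceptor terminals (0.73) were higher, and Ric8a (-0.36) lower.

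Of 29 relatives of the members, 24 passed the filter, and limma called 0 between oxygen conditions, with 4 of 24 in C57 and 4 in BALBc at an unadjusted p under 0.05, near the 13.3% and 14.2% of all genes. The most abundant were Gnb1 (1021 FPKM) and Gngt1 (352 FPKM), subunits of rod transducin. Between strains in normoxia Gnb2 (log2 difference -0.89) and Gnb4 (-0.51), other beta subunits, were lower in BALBc. Of all genes tested, 9.08% were called there and 22.6% between strains in hyperoxia. In hyperoxia the glutamate receptor Grm7 (1.26), Gng5 (0.50) and Gngt1 (1.15) were higher, and Grm4 (-0.63), the inhibitory alpha subunit Gnai2 (-0.34), Gnb2 (-0.86) and Gnb4 (-0.41) lower. Among 6 rod bipolar markers, Sebox, a homeobox gene, was higher in BALBc in both conditions, by 0.70 in normoxia and 1.05 in hyperoxia on the log2 scale, while Car8 (-0.46) and Tpbg (-0.55) were lower in hyperoxia.

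Genes outside the cascade were ranked by their likeness to a member over the 16 libraries. Likeness was the root mean square difference of log2(FPKM + 0.5) after taking off each gene's mean, and the median over all tested genes of the spread of a gene about its own mean was 0.254. Nearest to Grm6, whose own spread was 0.621, were Zfp692 (0.174), Fam193b (0.187), Psd2 (0.204), 4632432E15Rik (0.223) and Mir124a-1hg (0.234), the host transcript of a neuronal miRNA. Nearest to Trpm1 (0.327) were Ndnf (0.115), Krba1 (0.121), Sfswap (0.132), Phka1 (0.136) and Peg3 (0.141). Nearest to Gng13 (0.337) were Sorbs3 (0.207), Oaf (0.234), Dtnbp1 (0.237), Gstt1 (0.242) and Rarg (0.242). The differences of Dtnbp1 and Rarg exceeded those genes' own spreads (0.219 and 0.229), so they did not follow Gng13 closely. Members were left out of this ranking by rule.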

How the data were processed

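The authors deposited 1 table of FPKM for 54532 genes and 16 libraries. HISAT2 2.0.5 and featureCounts 1.5.0-p3, with the build GRCm38, are named per the submitters' processing notes, and the strand setting is not given in the sources used here. Per the labels' protocols RNA was extracted with TRIzol. Of the genes, 54495 matched the GENCODE release M21 annotation by identifier. Whole reads were recovered from the FPKM steps for 97.1% to 97.5% of values (tolerance 0.01 reads, up to 1000 reads), and the implied library size followed median-of-ratios factors within 0.0200%.

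Values were analysed as log2(FPKM + 0.5), which understates changes of low genes, for the 14953 genes that reached 1 FPKM in 4 or more libraries. limma 3.58.1 (R 4.3.3, empirical Bayes with trend) fitted the 4 groups at once. The 5 comparisons were two-sided, with Benjamini-Hochberg adjustment over all tested genes and a threshold of 0.05. The fit was tried on simulated counts in which each gene was drawn independently. That trial holds no shifts shared by the genes of a library, so it does not cover such shifts here. Sex was read from Xist (male below 1 FPKM; female from 10 FPKM upward if Ddx3y was below 2 FPKM). Named genes were all members, called or most abundant genes of each list, and the 5 genes most like Grm6, Trpm1 and Gng13. Members and lists were chosen with earlier results of these data known. Replicate numbers did not pair the libraries. Alternatives were other pseudocounts, filters, scalings, covariates and fits, voom on recovered reads, and leaving out libraries.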

Additional observations from a re-analysis of the deposited data

Results flagged for a closer look

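Of 40 groups of 4 libraries (10 genes, 4 groups), 3 held a library far from the other 3, where chance gives about 1 in 20. Gng13 in BALBc normoxia replicate 3 was lowest at 21.4 FPKM, with a gap of 0.838 of the group's range, just past the limit for 4 values. Rgs11 in C57 hyperoxia replicate 1 was lowest at 7.36 FPKM, with a gap of 0.976 of a narrow range. Gnb5 in BALBc hyperoxia replicate 1 was lowest at 127 FPKM, with a gap of 0.902 of the range; this library was also the lowest of its group in rod markers.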

How the results depend on the processing

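The counts of genes called were 50 and 24 for oxygen in C57 and BALBc, 0 for the difference of responses, and 1358 and 3380 for the strains in normoxia and hyperoxia. For C57 oxygen the count was 32 with a pseudocount of 0.1, 9 without the filter, 1 with only the groups compared, 1 with the replicate block, 0 with the sex covariate, 484 with the rod covariate and 199 with the bipolar covariate. For BALBc oxygen it was 8 without the filter, 108 with TPM scaling, 3 with only the groups compared, 39 with the sex covariate, 821 with the rod covariate and 60 with the bipolar covariate. For the strains in hyperoxia it was 2003 with only the groups compared and 2102 with the sex covariate, and for the difference 2 with the bipolar covariate. Leaving out 1 library gave 0 to 85 for C57 oxygen, 1 (without BALBc normoxia replicate 4) to 284 (without BALBc hyperoxia replicate 1) for BALBc oxygen, 0 to 1 for the difference, 903 to 1398 for normoxia and 2326 to 4244 for hyperoxia. Chosen after seeing the data, leaving out BALBc hyperoxia replicates 2 and 3 gave 2066 for the strains in hyperoxia, and leaving out C57 normoxia replicates 1 and 2 gave 8 for C57 oxygen and 751 for the strains in normoxia. The cause of these changes was not tested.

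Of the 50 results of members, 4 were called and none of the 4 changed sign. The other 46 gave 1000 values under alternatives, of which 9 were called and 39 had the other sign. Gng13 in C57 was at a limma adjusted p of 0.0675 with the replicate block; same-numbered libraries did not deviate together (24 pairs, correlations -0.501 to 0.401, mean 0.0179), so the block is no pairing. TPM scaling moved the median of all genes by -0.16 in BALBc oxygen and in the strains in hyperoxia. With 4 libraries a group, intervals of the variable members Grm6 and Rgs11 span over 1 log2 unit.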
